A study of Mus musculus with 9 samples.

Results

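The genes described here are 45 genes of the sarcomere, the contractile unit of muscle, in the cardiac ventricles of fetal mice that lack Esrrg. They comprise 14 genes of the thick filament (myosin heavy and light chains and their partners), 17 of the thin filament (actins, troponins, tropomyosins and pointed-end proteins) and 14 of the Z-disc, titin and M-band. They were chosen by name. All 45 had a probe set that names 1 gene, out of 18193 such genes on the array, and each gene was read by its brightest probe set (highest average on the 9 arrays).

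The study compared total RNA from the ventricles of male fetuses at E18.5, shortly before birth, that were ERRg +/+, ERRg +/- or ERRg -/-, here WT, HET and KO. ERRg, the protein of Esrrg, is estrogen-related receptor gamma, an orphan nuclear receptor of energy metabolism. Each genotype had 3 arrays, titled biological replicates, and each array was hybridised with cRNA from 6 µg of RNA. The source label of each sample speaks of 3 ventricles and does not settle whether they were pooled, so every p-value rests on the scatter between arrays, which may be technical. The labels name neither the strain nor the altered part of the gene.

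A sarcomere is built from myosin thick filaments and actin thin filaments, held by titin and anchored at the Z-disc and the M-band. Many of its proteins come in isoforms from different genes, and a mouse ventricle exchanges several of them around birth, such as the beta myosin heavy chain Myh7 for the alpha chain Myh6 and the slow skeletal troponin I Tnni1 for the cardiac Tnni3. Other isoforms mark atrial, skeletal or smooth muscle and are low or fading in the late fetal ventricle, and their level relative to the ventricular partner is a common description of how mature a ventricle is.

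The brightest Esrrg probe set gave signals of 281, 213 and 206 for WT, 162, 164 and 162 for HET and 58.3, 58.1 and 39.3 for KO, so the genotypes did not overlap. MAS5 signals are linear intensities, each array having been scaled to a trimmed mean of 200, and a signal cannot be set against that of another probe set as a measure of which transcript is more abundant. Array medians ran from 36.6 to 45.9. Precision is limited by having 3 arrays a genotype. Spike-in control probe sets parted the arrays into 2 sets that nearly follow genotype. Array set 1 held the 3 WT arrays and HET replicate 1, with log2 ratios of the thr to the dap spike-in from -0.67 to -0.43, and array set 2 held HET replicates 2 and 3 and the 3 KO arrays, from -1.09 to -0.89. The labels name no batch. Differences between genotypes are therefore also given with the set as a block, which rests on HET replicate 1 against WT inside set 1 and on KO against HET replicates 2 and 3 inside set 2.

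Marker genes of cell types were read in the same RNA. All 9 atrial markers on the array, all 9 fibroblast and all 8 endothelial markers lay above the floor described next. Passing the floor therefore does not tell ventricular RNA from that of other cells or chambers. All 10 ventricular cardiomyocyte markers, among them Irx4, Ryr2, Pln and Atp2a2, also lay above the floor of the filter (a signal of 21.7). Their summed signal was 97107 to 101550 in WT, 90609 to 98592 in HET and 88578 to 89986 in KO, so that KO lay below WT, and 1 of the 10, the oxygen store Mb, fell in KO. Of the 10, 7 lay lower and 3 higher in KO, the latter including Hey2 at 0.86 and Gja1 at 0.34 on a log2 scale. With the array set as a block 5 of the 10 lay lower, and Mb was at -0.10, Hey2 at -0.24 and Gja1 at -0.15. The part of the lower summed signal in the lower signals of sarcomere members was not tested. Of the skeletal muscle markers 13 of 19 lay under the floor, including the myogenic regulators Myog, Myf5 and Myf6, the satellite cell factor Pax7 and the fast myosins Myh1, Myh2 and Myh4. In bulk tissue, fewer cells of a type and less RNA per cell cannot be told apart.

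Between KO and WT, 2 of the 42 members that passed the filter on low signals changed. Myl1, a light chain of fast skeletal and fetal muscle, rose and Tnnt1, the slow skeletal troponin T, fell. These are 4.76% of the tested members, against 1.62% of all 13028 genes tested (0.737% higher and 0.883% lower). A gene is counted as changed at an adjusted p under 0.05 in limma, after Benjamini-Hochberg adjustment over all genes tested. At an unadjusted p under 0.05 there were 18 members, or 42.9%, against 17.2% of all genes, with 12 lower in KO (28.6%, against 9.28%) and 6 higher. In 17 members, or 40.5%, KO and WT shared no part of their range, against 25.0% of all genes. The differences were small. Their median was -0.07 on the log2(signal + 16) scale, against -0.01 over all genes tested, and 26 of 42 lay below 0 (61.9%, against 51.6%).

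With the array set as a block the balance of directions changed. None of the members passed, 5 had an unadjusted p under 0.05 (11.9%, against 6.19% of all genes), 14 of 42 lay below 0 (33.3%, against 47.5%) and the median was 0.03, while 22 of 42 kept the direction they had without the block. The block leaves few arrays to carry the comparison, and 1 gene in all passes with it (0.00768%). With quantile normalization the members' median was -0.0073, against -0.027 over all genes, and 22 of 42 lay below 0. Among bright members, Myh7 at -0.03, Myl2 at -0.0085 and Actc1 at -0.04 came closer to WT under it. Others moved further above WT, among them Myh6 at 0.16, Myl7 at 0.38 and Acta2 at 0.34.

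Myl1 encodes the essential light chain of fast skeletal myosin, which is also made in the embryonic heart. Its signals were 1790.5, 1264 and 1046 for WT, 1330.3, 1834 and 1984 for HET and 3114.5, 3506 and 2183 for KO. All 3 KO arrays lay above every WT and HET array, HET replicate 1 lay inside the WT range, and HET replicates 2 and 3 lay between the WT and KO arrays. The KO mean of 2934 ± 679 was 215% of the WT mean of 1367 ± 383 (signal, SD, n = 3 each), and the difference was 1.10 ± 0.19 (log2(signal + 16), SE, limma, adjusted p = 0.0215). KO against HET gave 0.76 ± 0.19, with an adjusted p of 0.947. The difference was 0.59 ± 0.30 with the array set as a block (adjusted p = 0.827). Inside the sets, HET replicate 1 differed from WT by less than 0.01, KO from HET replicates 2 and 3 by 0.59, and HET replicates 2 and 3 from HET replicate 1 by 0.51. Without WT replicate 2 or 3 or KO replicate 1 or 2 the difference was 1.06, 0.93, 1.04 or 0.96 and no longer passed (adjusted p = 0.0889, 0.105, 0.101 and 0.0960).

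Tnnt1 encodes slow skeletal troponin T, the tropomyosin-binding subunit of troponin, which the early heart shares with slow muscle. Its signals were 1067.5, 1240.5 and 1669.7 for WT, 962, 819 and 1145 for HET and 637, 759 and 837 for KO. Every KO array lay below every WT array, and the HET arrays overlapped both. The KO mean was 56.1% of WT, a difference of -0.80 ± 0.15 (limma, adjusted p = 0.0282). With the array set as a block it kept its size at -0.81 ± 0.27 but did not pass (adjusted p = 0.741). HET replicate 1 differed from WT by -0.43 inside set 1 and KO from HET replicates 2 and 3 by -0.38 inside set 2, while the HET arrays of the different sets differed by 0.01. The call was lost without WT replicate 2 or 3 or KO replicate 1, 2 or 3, at differences of -0.84, -0.63, -0.70, -0.82 and -0.89 (adjusted p = 0.0889, 0.126, 0.124, 0.0960 and 0.0659).

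**Figure D1:**
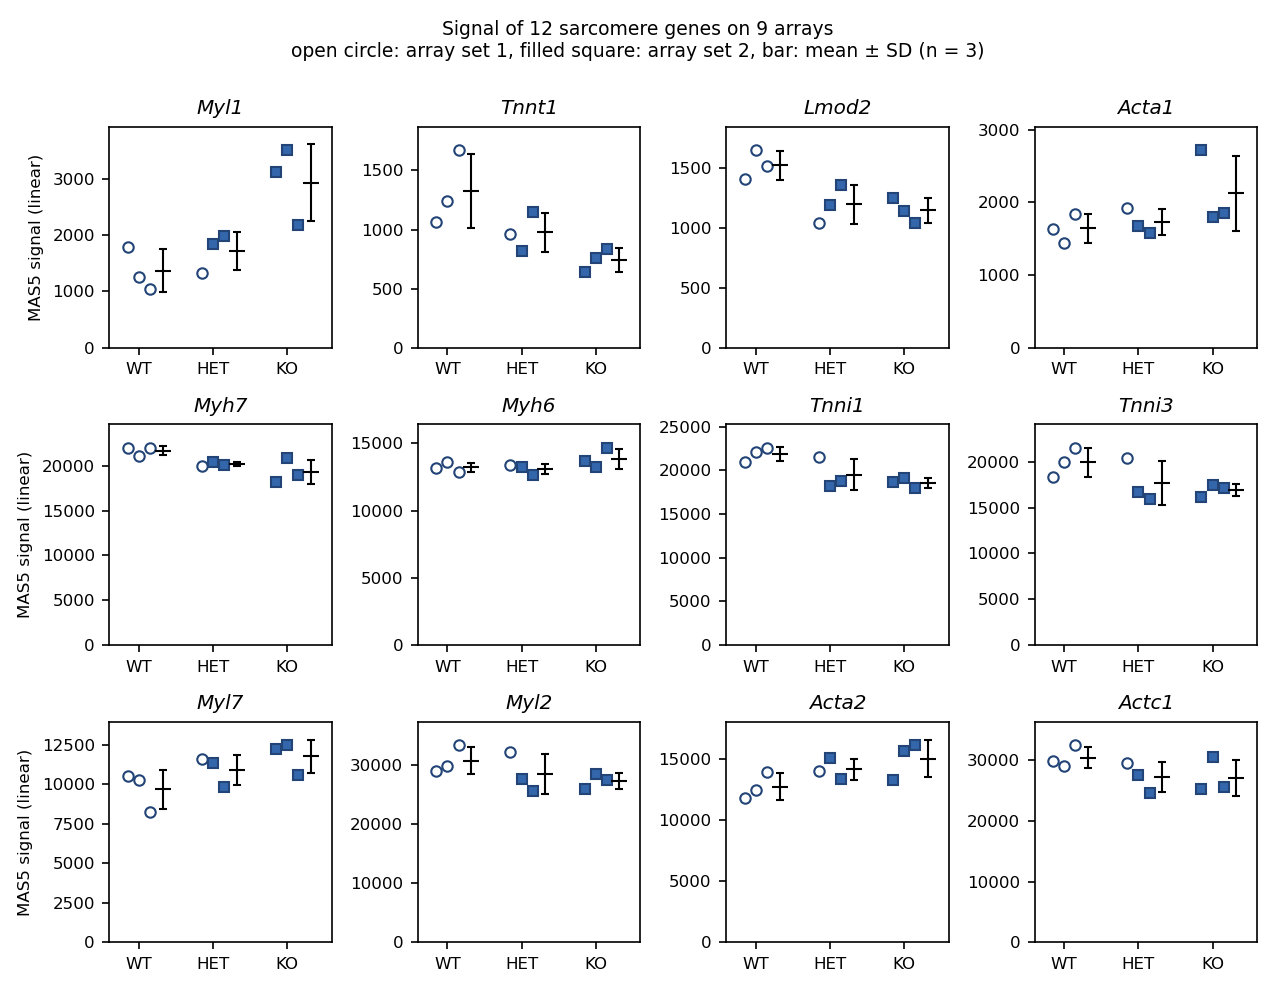
MAS5 signals (linear, from 0) of 12 sarcomere genes on the 9 arrays, by genotype, with open circles for array set 1, filled squares for array set 2 and bars for the mean ± SD (n = 3). The KO arrays of Myl1 lie above and those of Tnnt1 below every WT array, and for Tnni1, Tnni3 and Myl2 HET replicate 1 lies with the WT arrays.

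The 250 bases before the start of these 2 genes are shown, with those of the only 2 members whose window holds a match to the long binding motif of the estrogen-related receptors, TNAAGGTCA, searched on both strands. The windows are RefSeq starts on GRCm38.p6, written 5′ to 3′ along the gene, and capitals mark the motif.
Myl1, chr1:66945057-66945306, minus strand: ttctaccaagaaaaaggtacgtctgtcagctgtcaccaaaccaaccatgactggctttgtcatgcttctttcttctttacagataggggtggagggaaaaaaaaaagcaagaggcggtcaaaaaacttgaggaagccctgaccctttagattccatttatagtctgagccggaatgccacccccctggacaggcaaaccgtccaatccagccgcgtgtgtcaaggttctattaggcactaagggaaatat
Tnnt1, chr7:4515976-4516225, minus strand: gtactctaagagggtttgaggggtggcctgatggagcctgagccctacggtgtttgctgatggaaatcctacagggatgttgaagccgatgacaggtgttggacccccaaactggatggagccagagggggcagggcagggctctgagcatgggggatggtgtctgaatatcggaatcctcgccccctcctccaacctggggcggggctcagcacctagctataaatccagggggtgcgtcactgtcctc
Tpm3, chr3:90072401-90072650, plus strand: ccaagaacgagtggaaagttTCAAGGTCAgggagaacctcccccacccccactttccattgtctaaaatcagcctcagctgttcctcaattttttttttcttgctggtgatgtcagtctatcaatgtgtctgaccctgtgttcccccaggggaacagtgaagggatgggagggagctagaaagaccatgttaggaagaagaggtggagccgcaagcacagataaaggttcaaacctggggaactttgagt
Myh7b, chr2:155610993-155611242, plus strand: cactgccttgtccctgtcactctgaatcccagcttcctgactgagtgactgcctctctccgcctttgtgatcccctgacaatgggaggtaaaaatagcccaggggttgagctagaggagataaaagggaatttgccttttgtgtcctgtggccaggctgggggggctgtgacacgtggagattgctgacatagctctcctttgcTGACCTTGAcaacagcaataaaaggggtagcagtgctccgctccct

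The RefSeq table held 51 windows for 39 of the 45 members. The motif TNAAGGTCA was found in 2 of the 51 (3.92%), against 1.14% of all 32851 windows, and its shorter core AAGGTCA was found in the same 2 (3.92%, against 4.08% of all). The match lies at position -230 in Tpm3, counted from the start of transcription to the first base of the match, and at -46 on the reverse strand in Myh7b, a slow myosin heavy chain whose gene also holds a muscle miRNA. Neither gene changed by its brightest probe set, with differences of 0.01 ± 0.08 and 0.04 ± 0.12 between KO and WT. The windows of Myl1 and Tnnt1 hold no match, which says only that these letters are not in these 250 bases. The 50 bases after the start that the table also holds were not searched.

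Motifs of general muscle factors were counted in the same windows. The M-CAT element CATTCC, bound by TEAD factors, was found in 15 of the 51 windows (29.4%, against 12.6% of all), among them those of Myl1, Myl7, Myh6, Myh7, Acta1, Acta2 and Tnnt2. The CArG box of serum response factor was found in 9 windows (17.6%, against 1.47%), those of 8 genes that include the actins Actc1 and Acta1 and the light chains Myl3, Myl7 and Myl9. The MEF2 motif was found in 4 (7.84%, against 2.92%), those of Mybpc3, Myh8, Myoz2 and Ttn. All motifs were searched on both strands, each match is a description of letters, and the M-CAT set and the CArG set share genes.

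In the thick filament list 1 of 14 members, Myl1, changed, 8 lay lower and 6 higher in KO, and the median difference was -0.07 (0.06 with the array set as a block). The beta myosin heavy chain Myh7, the motor of the fetal mouse ventricle, gave 22014, 21137 and 22000 for WT, 20037, 20473 and 20137 for HET and 18188, 20830 and 18931 for KO. Every WT array lay above every HET and KO array. The difference between KO and WT was -0.17 ± 0.06 (adjusted p = 0.129), -0.19 ± 0.09 with the array set as a block. The alpha heavy chain Myh6, which dominates the adult mouse ventricle, gave 13140, 13613 and 12914 for WT, 13370, 13251 and 12673 for HET and 13672, 13231 and 14675 for KO. Here the genotypes overlapped by the brightest probe set, with a difference of 0.07 ± 0.06 (adjusted p = 0.605). A dimmer Myh6 probe set gave 0.38 ± 0.13 (limma over all probe sets, adjusted p = 0.138), with every KO array above every WT array. With the array set as a block it gave 0.07 ± 0.20. A pair of probe sets that name both Myh6 and Myh7, whose coding sequences are closely alike, were not used.

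The light chains differed in direction. The atrial regulatory light chain Myl7 gave 10496, 10285 and 8244 for WT, 11560, 11348 and 9829.8 for HET and 12254, 12459 and 10568 for KO. The KO arrays lay just above the WT arrays and the HET arrays overlapped both, for a difference of 0.29 ± 0.09 (adjusted p = 0.124) and 0.42 ± 0.16 with the array set as a block. Without WT replicate 3 it was 0.17 (adjusted p = 0.397). The ventricular regulatory light chain Myl2 gave 28938, 29849 and 33307 for WT, 32092, 27638 and 25620 for HET and 25862, 28466 and 27472 for KO. KO lay below WT, HET replicate 1 lay inside the WT range and the other HET arrays lay below it. The difference of -0.17 ± 0.08 (adjusted p = 0.266) turned to 0.10 ± 0.10 with the block.

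The ventricular essential light chain Myl3 gave 29011, 28838 and 30404 for WT, 29120, 27783 and 26684 for HET and 26240, 27860 and 26070 for KO. The pattern was that of Myl2, with KO below WT and HET replicate 1 among the WT arrays, and the difference was -0.14 ± 0.05 (adjusted p = 0.18). The other Myl3 probe sets gave -0.16 ± 0.06 and -0.04 ± 0.05, the latter with overlapping KO and WT arrays. The atrial and fetal essential light chain Myl4 gave 11569, 9646 and 9319 for WT, 9665, 8352 and 9583 for HET and 10072, 9461.5 and 7382 for KO, with overlapping genotypes and a difference of -0.19 ± 0.11 (adjusted p = 0.389). Cardiac myosin-binding protein C, Mybpc3, which braces the thick filament, gave 12080, 11524 and 12702 for WT, 11848, 10730 and 10511 for HET and 10610, 10218 and 10373 for KO. All KO arrays lay below all WT arrays, and HET replicate 1 lay in the WT range. Its difference of -0.22 ± 0.06 (adjusted p = 0.0867) came to -0.06 ± 0.09 with the array set as a block.

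The other thick filament members were the smooth muscle light chain Myl9, the cardiac light chain kinase Mylk3, Myh7b and the skeletal genes Myh3, Myh8 and Mybpc1. The first 3 differed by -0.09 to 0.18, with adjusted p from 0.317 to 0.912. The embryonic and perinatal skeletal heavy chains Myh3 and Myh8 and the slow skeletal Mybpc1 were dim on every array, with signals from 8.57 to 59.5, 6.02 to 66.3 and 4.29 to 66.4. Their standard errors of 0.46 to 0.54 were several times those of the bright members, and their arrays overlapped.

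**Figure D2:**
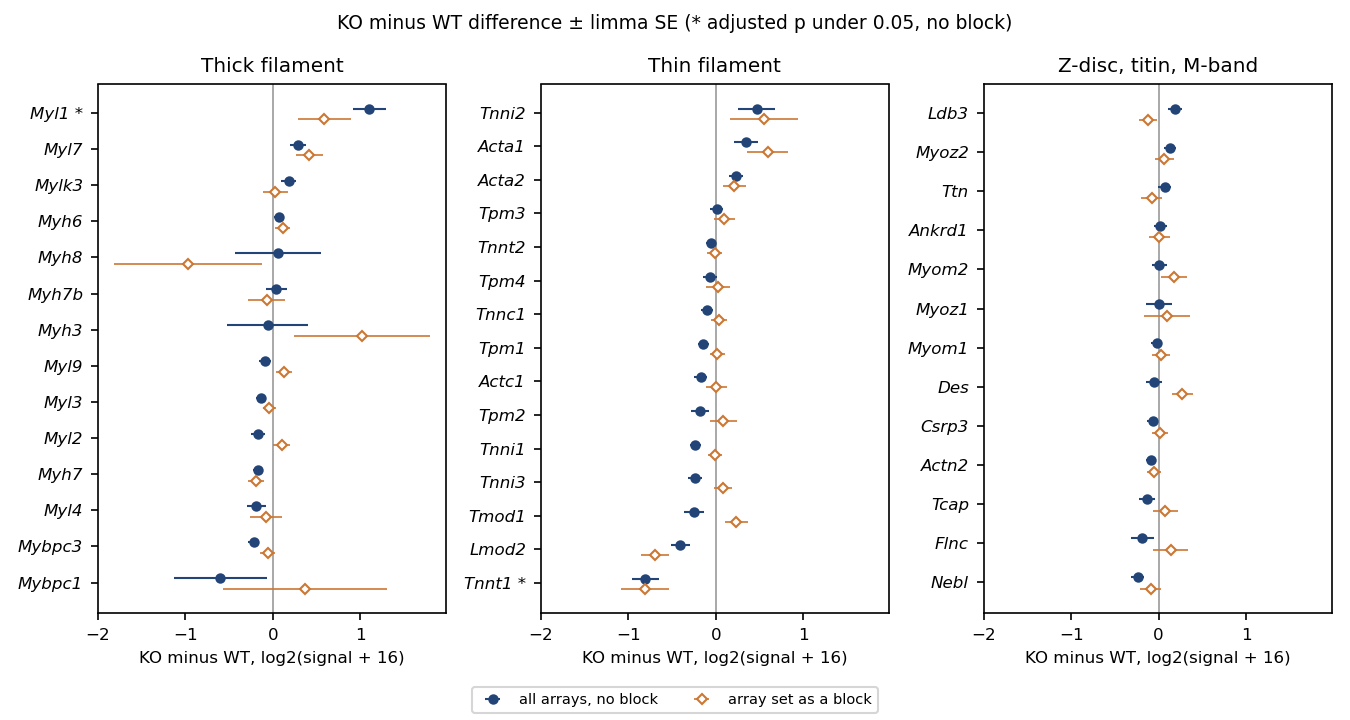
Difference between KO and WT of the 42 tested members (x axis, log2(signal + 16)), by role, with limma standard errors as bars, filled circles for all arrays without a block and open diamonds for the fit with the array set as a block. Myl1 stands to the right and Tnnt1 to the left, and 14 of the 42 diamonds lie below 0.

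In the thin filament list 1 of 15 tested members, Tnnt1, changed, 11 lay lower and 4 higher in KO, and the median of -0.14 became 0.04 with the array set as a block. Leiomodin 2, Lmod2, which nucleates and lengthens thin filaments, gave 1402, 1644 and 1511 for WT, 1036, 1192 and 1354 for HET and 1251, 1142 and 1039 for KO. Every WT array lay above every HET and KO array, and HET and KO overlapped. The difference between KO and WT was -0.41 ± 0.11, with an adjusted p of 0.0689, and between HET and WT it was -0.35 ± 0.11 (adjusted p = 0.31). With the array set as a block the KO difference was larger, -0.70 ± 0.16, and HET replicates 2 and 3 lay above HET replicate 1 by 0.29.

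Troponin I sets how strongly the thin filament is held off without calcium, and its slow skeletal form Tnni1 is the fetal cardiac one. Tnni1 gave 20920, 22104 and 22562 for WT, 21518, 18162 and 18752 for HET and 18652, 19134 and 17990 for KO. The adult cardiac form Tnni3 gave 18324, 19949 and 21532 for WT, 20385, 16686 and 15931 for HET and 16156, 17436 and 17094 for KO. In both genes KO lay below WT, HET replicate 1 lay inside the WT range and HET replicates 2 and 3 lay among or near the KO arrays. The differences were -0.23 ± 0.06 for Tnni1 (adjusted p = 0.078) and -0.24 ± 0.08 for Tnni3 (adjusted p = 0.143), and with the array set as a block -0.01 ± 0.08 and 0.09 ± 0.10. HET replicates 2 and 3 differed from HET replicate 1 by -0.22 in Tnni1 and -0.32 in Tnni3.

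Cardiac actin Actc1, the main alpha-actin of the heart, gave 29833, 29061 and 32484 for WT, 29548, 27607 and 24683 for HET and 25210, 30483 and 25605 for KO. KO replicate 2 lay inside the WT range, and the difference was -0.17 ± 0.08 (adjusted p = 0.272), 0.01 with the block. Smooth muscle actin Acta2, the first alpha-actin of the embryonic heart, gave 11819, 12459 and 13982 for WT, 13993, 15090 and 13362 for HET and 13327, 15627 and 16129 for KO. KO replicate 1 lay inside the WT range and the other KO arrays above it, for a difference of 0.24 ± 0.08 (adjusted p = 0.133). The actin genes are closely alike in coding sequence, and the Acta2 probe set is of a type whose probes can match several transcripts. Skeletal actin Acta1, a second sarcomeric alpha-actin of the fetal heart, gave 1640, 1440.1 and 1847 for WT, 1929, 1669 and 1582 for HET and 2716, 1794.5 and 1859.5 for KO. KO replicate 1 stood above all other arrays and KO replicate 2 lay inside the WT range, for a difference of 0.35 ± 0.14 (adjusted p = 0.195) and 0.59 ± 0.23 with the block.

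The tropomyosins lie along actin and carry troponin. Tpm1, the main one of the heart, gave 20620, 19992 and 21915 for WT, 21550, 20159 and 18449 for HET and 18939, 19040 and 18714 for KO. KO lay below WT and the HET arrays spanned both, and the difference of -0.14 ± 0.06 (adjusted p = 0.252) came to 0.02 ± 0.09 with the block. Tpm2 gave 1931, 2199.7 and 2454.5 for WT, 2287, 1808 and 1994 for HET and 1878, 1878 and 2033 for KO, with overlapping genotypes and a difference of -0.18 ± 0.10 (adjusted p = 0.387). Tpm3, a slow muscle and non-muscle form, gave 1738, 1776 and 1617 for WT, 1733, 1661 and 1601 for HET and 1728, 1713 and 1726 for KO. By this probe set the genotypes overlapped and the KO arrays lay inside the WT range.

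Of the other thin filament members, the cardiac troponins Tnnt2 and Tnnc1 and the tropomyosin Tpm4 differed by -0.10 to -0.05. Tmod1, which caps the pointed end, had 4384.5 ± 491 in WT and 3661 ± 120.0 in KO and a difference of -0.25 ± 0.11 (adjusted p = 0.267). With the array set as a block it was 0.23 ± 0.13, and HET replicate 1 lay above every other array. The fast skeletal troponin I Tnni2 was low, at 129.5 to 301, with a difference of 0.47 ± 0.22 (adjusted p = 0.282). The fast skeletal Tnnt3 and Tnnc2, with signals from 1.5 to 48.1 and 2.37 to 25.0, lay under the floor and were not tested.

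None of the 13 tested members of the Z-disc, titin and M-band changed, with 7 lower and 6 higher in KO and a median of -0.02. At an unadjusted p under 0.05 there were 2 of these 13, where 17.2% of all genes were. The count was 6 of 14 in the thick filament list and 10 of 15 in the thin filament list. Nebulette, Nebl, which ties thin filaments to the Z-disc, gave 3278.5, 2845 and 3074 for WT, 2955.5, 2657 and 2679 for HET and 2609.7, 2532.5 and 2641 for KO. Every KO array lay below every WT and HET array, for a difference of -0.24 ± 0.08 (adjusted p = 0.117) and -0.09 ± 0.12 with the block. Ldb3, a PDZ and LIM protein of the Z-disc also known as Cypher or ZASP, gave 4693, 4432 and 4345 for WT, 4101, 5030 and 5115 for HET and 5271, 5098 and 4930 for KO. The KO arrays lay above the WT arrays, HET replicate 1 below all of them and the other HET arrays with KO. Its difference of 0.18 ± 0.08 (adjusted p = 0.26) turned to -0.12 ± 0.10 with the block.

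Titin, Ttn, the elastic spring of the sarcomere, gave 5659, 5569.6 and 5337 for WT, 5024, 5306 and 5859.9 for HET and 5338, 6381.5 and 5712 for KO, with overlapping genotypes and a difference of 0.07 ± 0.08. The M-band protein myomesin 1, Myom1, gave 3807, 3609.6 and 3473 for WT, 3442, 3329 and 3337 for HET and 3562, 3499 and 3653 for KO. Its KO arrays lay inside the WT range while the HET arrays lay below both. Myom2, the M-protein of adult and fast muscle, gave 4885, 4713 and 4022 for WT, 4682, 4064 and 4269.6 for HET and 4786, 4058 and 4853 for KO, with all genotypes overlapping. The differences between KO and WT were -0.02 ± 0.07 and 0.01 ± 0.09 (adjusted p = 0.905 and 0.98). Dimmer tested Myom2 probe sets gave 0.22 ± 0.15 and 0.18 ± 0.15 (limma over all probe sets, adjusted p = 0.519 and 0.601), with overlapping KO and WT arrays. The brightest Myom2 probe set and the one at 0.18 are of a type whose probes can match several transcripts.

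The other 8 tested members of this list, namely the titin cap Tcap, the calsarcins Myoz1 and Myoz2, alpha-actinin 2 (Actn2), the LIM protein Csrp3, the stress-responsive Ankrd1, desmin (Des) and filamin C (Flnc), differed by -0.19 to 0.13, and the smallest adjusted p was 0.331. Desmin, the intermediate filament of muscle, gave -0.05 ± 0.09 without and 0.27 ± 0.12 with the array set as a block (unadjusted p = 0.0449), and HET replicates 2 and 3 differed from HET replicate 1 by -0.32. Myotilin, Myot, was dim, at 3.59 to 42.9, and was not tested.

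Isoform pairs were compared as log2 ratios within each array, so that a scaling common to an array cancels. Of 21 pairs 19 had both members tested. Between KO and WT, 4 of the 19 ratios changed, 8 had an unadjusted p under 0.05, and the KO and WT arrays of 8 did not overlap. Over all single genes tested these shares were 1.62%, 17.2% and 25.0%. A ratio changes with either member, its absolute size depends on the probes, and pairs that share a partner are not independent. Only differences between genotypes are read from it. With the array set as a block none of the 19 passed.

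Neither of the classical ratios of the fetal to adult switch passed the test. The Myh7/Myh6 ratio gave 0.74, 0.63 and 0.77 for WT, 0.58, 0.63 and 0.67 for HET and 0.41, 0.65 and 0.37 for KO. KO replicate 2 lay inside the WT range and the other KO arrays below it, for a difference of -0.24 ± 0.07 (limma, adjusted p = 0.1) and -0.30 ± 0.12 once the array set was a block. With averaged probe sets the difference was -0.40 ± 0.09 (adjusted p = 0.0774). Without HET replicate 1 this ratio was called (-0.24 ± 0.07, adjusted p = 0.0417), but no array then crosses between genotype and array set. The Tnni1/Tnni3 ratio gave 0.19, 0.15 and 0.07 for WT, 0.08, 0.12 and 0.23 for HET and 0.21, 0.13 and 0.07 for KO. The 3 genotypes overlapped fully, and the difference was less than 0.01 with an SE of 0.06 (adjusted p = 0.992).

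The Acta2/Actc1 ratio, smooth muscle over cardiac actin, rose. It gave -1.33, -1.22 and -1.22 for WT, -1.08, -0.87 and -0.88 for HET and -0.92, -0.96 and -0.67 for KO. All KO and HET arrays lay above all WT arrays. The KO difference was 0.41 ± 0.08 (adjusted p = 0.0279), 0.21 ± 0.12 with the block, and the HET difference 0.31 ± 0.08 (adjusted p = 0.298). The call between KO and WT was lost when any 1 of the 6 KO and WT arrays was left out (differences from 0.32 to 0.46, adjusted p from 0.0580 to 0.104). With averaged probe sets the difference was 0.83 (adjusted p = 0.0923). That average takes in dim Acta2 probe sets, with signals from 2.54 to 84.8 and from 3.23 to 68.4. These gave Acta2 differences of 0.82 ± 0.40 and 0.91 ± 0.42, where the brightest gave 0.24 ± 0.08. Of the smooth muscle markers, 8 of 9 lay above the floor and none changed, Lmod1 lay under it, and their summed signal was 3933 to 4271 in WT and 3832 to 4485 in KO.

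The Acta1/Actc1 ratio, skeletal over cardiac actin, gave -4.17, -4.32 and -4.12 for WT, -3.93, -4.03 and -3.95 for HET and -3.21, -4.07 and -3.77 for KO. All KO and HET arrays lay above the WT arrays, with KO replicate 1 the highest, for a difference of 0.52 ± 0.14 (adjusted p = 0.0797) and 0.59 ± 0.26 with the block. The Myom2/Myom1 ratio, which rises with maturation, gave 0.36, 0.38 and 0.21 for WT, 0.44, 0.29 and 0.35 for HET and 0.42, 0.21 and 0.41 for KO. The genotypes overlapped, with a difference of 0.03 ± 0.08 (adjusted p = 0.886). With averaged probe sets, a dim Myom2 one among them, it was 0.12 ± 0.14 (adjusted p = 0.763).

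Among atrial over ventricular pairs, the Myl7/Myl2 ratio gave -1.46, -1.54 and -2.01 for WT, -1.47, -1.28 and -1.38 for HET and -1.08, -1.19 and -1.38 for KO. The KO arrays lay above the WT arrays and WT replicate 3 was the lowest of all. The difference was 0.46 ± 0.11 (adjusted p = 0.0577) and 0.32 ± 0.20 with the block. It was 0.28 without WT replicate 3 (adjusted p = 0.175). The Myl4/Myl3 ratio gave -1.33, -1.58 and -1.70 for WT, -1.59, -1.73 and -1.48 for HET and -1.38, -1.56 and -1.82 for KO, with full overlap and a difference of -0.05 ± 0.11 (adjusted p = 0.865). The summed signal of the 9 atrial markers moved with Myl7, at 14709 to 15948 in WT, 15308 to 17184 in HET and 16756 to 18973 in KO. Most of it was Nppa, the atrial natriuretic peptide, which rose in KO by 0.24 (adjusted p = 0.0459), 0.34 with the block. The atrial sarcolipin Sln had -0.51 (adjusted p = 0.571), which turned to 0.16 with the block. Of the 9 atrial markers 6 lay higher and 3 lower in KO, and with the block 2 lay lower. The part of atrial cells in the Myl7 values was not tested.

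Among skeletal over cardiac pairs, the Myl1/Myl3 ratio gave -4.01, -4.49 and -4.84 for WT, -4.44, -3.91 and -3.74 for HET and -3.07, -2.98 and -3.57 for KO. KO lay above all other arrays, for a difference of 1.24 ± 0.20 (adjusted p = 0.012) and 0.63 ± 0.30 with the block. The Tnnt1/Tnnt2 ratio, slow skeletal over cardiac troponin T, gave -4.47, -4.24 and -3.88 for WT, -4.61, -4.83 and -4.29 for HET and -5.10, -5.005 and -4.73 for KO. KO lay below WT and the HET arrays overlapped both, for a difference of -0.75 ± 0.14 (adjusted p = 0.0279) and -0.80 ± 0.26 with the block. The calls of both ratios were lost without WT replicate 2 or 3 or KO replicate 1 or 2. The differences of Myl1/Myl3 then were 1.04 to 1.22 and its adjusted p 0.0635 to 0.0756, and those of Tnnt1/Tnnt2 were -0.77 to -0.59 and its adjusted p 0.0910 to 0.127.

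The Tnni2/Tnni3 ratio, fast skeletal over cardiac troponin I, gave -6.98, -6.76 and -6.77 for WT, -6.44, -6.28 and -6.12 for HET and -6.68, -5.97 and -5.75 for KO. All KO and HET arrays lay above the WT arrays. The difference of 0.70 ± 0.17 passed narrowly (adjusted p = 0.0493), and it was 0.47 ± 0.29 with the block. With the probe sets of each gene averaged it was 0.11 ± 0.17 (adjusted p = 0.842), and the other tested Tnni2 probe set on its own gave Tnni2 a difference of -0.60 ± 0.35 (adjusted p = 0.443), opposite to the brightest. The ratio did not pass in 15 of the 22 alternatives, which include leaving out any 1 array other than HET replicate 1 and KO replicate 1, at 0.51 to 0.74 with adjusted p from 0.0526 to 0.181. Among the skeletal muscle markers none changed, and their summed signal, most of which was the calsequestrin Casq1, was 2667 to 3162 in WT, 2901 to 3300 in HET and 2908 to 3752 in KO. All 6 skeletal markers above the floor lay higher in KO, where 51.6% of all genes lay lower, with a median difference of 0.27 (0.48 with the block, 1 of 6 lower). Mylpf and Ryr1 were at only 0.01 and 0.03. The calcium pump Atp2a1 had 0.87 (unadjusted p = 0.0437, adjusted p = 0.275) at signals from 6.10 to 60.3. Its means of 20.0 in WT and 13.8 in HET lay under the floor, and it passed the filter only through its KO mean of 49.3. Myod1 also lay under the floor in WT, at 20.9. The count is therefore partly set by the filter. The part of these 6 markers in the Myl1 and Tnni2 values was not tested.

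The other 9 tested ratios did not pass. Myl9/Myl2, Myh7b/Myh7, Tpm2/Tpm1, Tpm3/Tpm1, Tpm4/Tpm1 and Myoz1/Myoz2 differed by -0.13 to 0.21 between KO and WT, with adjusted p from 0.247 to 0.866. Myh3/Myh7, Myh8/Myh7 and Mybpc1/Mybpc3 rest on dim skeletal genes and had standard errors of 0.34 to 0.42. In an exact permutation test 3 arrays against 3 cannot give a two-sided p under 0.1, so the calls rest on the spread that limma shares over genes.

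**Figure D3:**
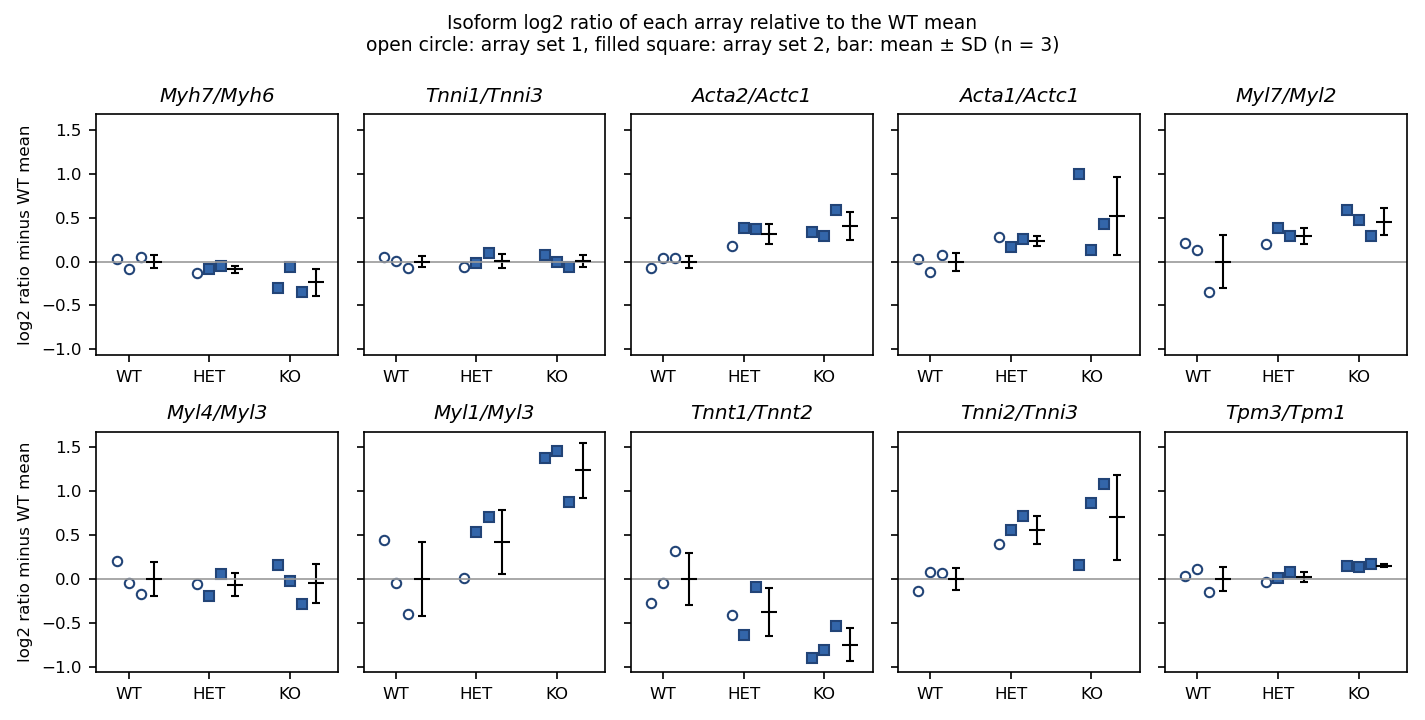
Log2 ratio of 10 isoform pairs on each array, relative to the WT mean of that pair (y axis), by genotype, with open circles for array set 1, filled squares for array set 2 and bars for the mean ± SD (n = 3). Tnni1/Tnni3 and Myl4/Myl3 overlap across genotypes, all KO points of Acta2/Actc1, Tnni2/Tnni3 and Myl1/Myl3 lie above the WT points, and those of Tnnt1/Tnnt2 lie below.

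Other probe sets of the same genes can report other transcript ends or splice forms. Of the 83 probe sets of the members 76 passed the filter, and on their own 4 changed between KO and WT, against 0.79% of all 23540 tested. They were those of Myl1 and Tnnt1 and 1 each of Tpm3 and Ldb3 that is not the brightest. The Tpm3 probe set gave 828, 640.0 and 990.1 for WT, 803, 349.9 and 412 for HET and 412, 366 and 359.5 for KO. All set 1 arrays lay above all set 2 arrays, HET replicate 1 among the WT arrays. The difference of -1.06 ± 0.23 (limma, adjusted p = 0.0474 over all probe sets) was -0.01 ± 0.25 with the array set as a block. By its type the probe set holds probes that may also bind other transcripts.

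The Ldb3 probe set gave 1667, 1393 and 1373 for WT, 1451.5, 1209 and 1064 for HET and 1024, 1070 and 988 for KO. KO lay below WT, and HET replicate 1 lay with WT. The difference was -0.51 ± 0.11 (adjusted p = 0.0497), against 0.18 ± 0.08 by the brightest one, and -0.16 ± 0.16 with the block. A dimmer Ttn probe set gave 887, 891 and 893 for WT, 766, 694 and 763 for HET and 654, 733 and 669.6 for KO, with KO below WT and a difference of -0.37 ± 0.09 (adjusted p = 0.0716), -0.30 ± 0.16 with the block, where the brightest Ttn probe set had 0.07 ± 0.08. Of the 17 members with several tested probe sets, 10 had probe sets of opposite direction, and in 6 of these (Ldb3, Nebl, Tpm1, Tpm2, Tpm3 and Ttn) at least 1 had an unadjusted p under 0.05. The other 4 were Tnni2, Tnnt2, Flnc and Des, whose dimmer probe sets gave -0.60, 0.40, 0.13 and 0.12. Which transcripts each probe set reads was not tested.

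**Figure D4:**
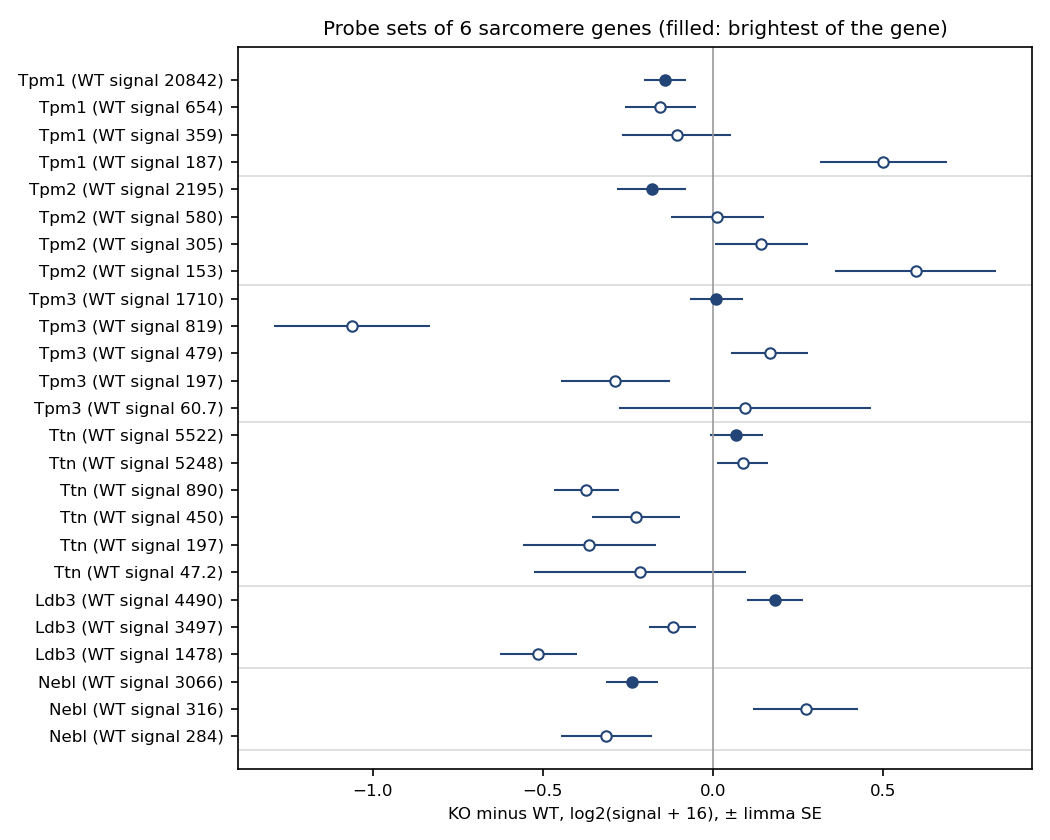
Difference between KO and WT (x axis, log2(signal + 16), bars limma SE) of every tested probe set of the 6 members whose probe sets disagree, filled for the brightest of a gene, with the WT mean signal beside each name. The Tpm3 probe set at a WT signal of 819 lies at -1.06 and the Ldb3 one at 1478 lies at -0.51, while the brightest of each gene lies at 0.01 and 0.18.

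With 1 copy of Esrrg lost, none of the 42 tested members changed (limma, 0.0% of all genes; 7 members, all lower, at an unadjusted p under 0.05, or 16.7%, against 11.5% of all genes, of which 5.9% lower). In 6 members (14.3%, against 13.7%) HET and WT did not overlap. In HET 33 of 42 members lay below WT, or 78.6%, against 50.9% of all genes, with a median of -0.09 that became -0.02 with the array set as a block. The smallest adjusted p was that of Lmod2, 0.31, followed by Tcap with -0.27 ± 0.09 (0.318). Tnnt1 had -0.43 ± 0.15 and Myl1 0.34 ± 0.19 in HET. None of the isoform ratios passed, and Acta2/Actc1 had the smallest adjusted p. Without HET replicate 1, which lies in the array set of the WT arrays, 5 members passed between HET and WT (Myl9, Tcap, Tmod1, Tnni1 and Tnni3). They were 11.9% of the tested members, against 4.41% of all genes. Between KO and WT 7 passed (16.7%, against 6.45%), so the counts depend on that array, among members and over all genes. Without it the WT arrays fill 1 array set and the HET and KO arrays the other. Genotype and array set cannot then be told apart in either comparison with WT.

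Between KO and HET none of the 42 members changed either, where 2 of all genes did (0.0154%). Myl1, 0.76 ± 0.19, and Tnnt1, -0.38 ± 0.15, were the 2 members with an unadjusted p under 0.05 (4.76%, against 4.81% of all genes), and 3 members did not overlap (7.14%, against 10.5%). The median was 0.01. The comparisons share arrays and are not independent of each other.

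Around the members, a list of 75 other sarcomere genes (further filament, Z-disc and costamere proteins, chaperones and ubiquitin ligases) had 71 on the array and 58 tested. Of these 3 rose and 3 fell between KO and WT, where 0.737% of all genes rose and 0.883% fell. Their median was 0.03, against -0.01 over all genes. Pdlim3, a Z-disc PDZ and LIM protein (ALP), gave 1075, 747 and 594 for WT, 1131, 1033.5 and 1091 for HET and 1385.5, 1363 and 1538 for KO, with all KO arrays above all others. It rose by 0.85 (adjusted p = 0.0225) and had 0.94 ± 0.27 with the block. Its relative Pdlim5 (ENH) rose by 0.41 and the muscle ubiquitin ligase Trim63 (MuRF1) by 0.51, but with the block these were 0.08 and 0.14. The myosin chaperone partner Smyd1, its relative Smyd2 and the titin-binding Ankrd23 fell by 0.42, 0.33 and 0.49, and with the block were at -0.15, -0.13 and -0.27.

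Of 36 factors known to govern sarcomere isoforms, such as cardiac transcription factors and splicing regulators, 35 were tested and 1 changed, against 1.62% of all genes. Tbx20, a T-box factor of the heart, gave 1481, 1138 and 1054 for WT, 980.3, 2099 and 1825 for HET and 2142, 2014 and 2379.6 for KO. It rose by 0.83 (adjusted p = 0.0483), yet HET replicate 1 lay below every WT array and HET replicates 2 and 3 with KO, and the difference was -0.15 with the block. Hey2, a repressor of atrial genes in the ventricle, had 0.86 (adjusted p = 0.0542, -0.24 with the block), the homeodomain protein Hopx -0.45 (0.0539, 0.10) and Hand2 0.28 (0.102, 0.10). In the marker lists, the fibroblast proteoglycan Lum rose by 0.33 (0.34 with the block), and 7 of the 9 fibroblast markers lay higher and 2 lower. With the block 0 of these 9 lay lower, and the median of the list went from 0.13 to 0.22. The endothelial receptor Kdr fell by 0.74 (-0.25 with the block). Of the 8 endothelial markers 5 lay lower and 3 higher, the latter including Npr3 at 0.34 and Emcn at 0.21. With the block 2 of the 8 lay lower. No tested marker of epicardium, erythroid cells, leukocytes or the conduction system changed. Only 2 of 7 erythroid and 3 of 6 conduction markers were tested, against 6 of 6 of epicardium and 7 of 7 of leukocytes.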

How the data were processed

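RNA of 9 ventricle samples, 3 per genotype by the titles, was measured on 9 one-colour Affymetrix arrays. The deposited values are linear MAS5 signal intensities, MAS5 being named in the submitters' processing notes, with no version given in the sources used here. The mean of each array without its top and bottom 2% is 200, so arrays were scaled and not otherwise normalized. Such values are noisy when dim, since mismatch probes are subtracted.

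The array has 64 control probe sets and 45037 others. Of the latter 34945 have 1 gene in the platform annotation, 932 several and 9160 none, and 34741 symbols were updated by gene ID through RefSeq. The brightest probe set of each gene was taken as log2(signal + 16), a scale on which fold changes of dim genes come out too small. A floor at the 40th percentile of probe set means (5.24, a signal of 21.7) left out 5165 genes, 3 members among them. The other 13028 were fitted with limma 3.58.1 in R 4.3.3, with 1 mean per genotype and a trend of variance with intensity. Tests were two-sided and adjusted over all genes of a comparison by Benjamini-Hochberg. The isoform log ratios were added as further genes. A call is an adjusted p under 0.05. The fit was also run on simulated arrays with independent normal noise and no array set effect, unlike these data. There it found 58.4% of 2-fold and 29.8% of 1.5-fold changes. With the array set as a block it found 13.8% and 1.2%.

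The members, lists, pairs and the array set (the widest gap in the spike-in thr to dap ratio) were chosen with earlier results of these data known. Values on every array are given, by rule, for called members, those of the fetal to adult and atrial to ventricular pairs, Myl1, the 10 smallest unadjusted p, and members whose probe sets disagree. Acta1, Tnni2, Tmod1 and Des, outside the rule, were named after their values were seen. Alternatives were quantile normalization, arrays shifted to one median, a pseudocount of 1 or 64, the floor removed or set at the 60th percentile, averaged probe sets of a gene, probe sets on their own, no trend, array quality weights, the 6 arrays compared alone, the replicate number or the array set as a block, and the omission of single arrays. Leaving out both arrays of lowest quality weight was added after seeing the data. Promoters are RefSeq windows of GRCm38.p6. Python 3.11.15 with matplotlib 3.10.9 drew the figures.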

Additional observations from a re-analysis of the deposited data

How the results depend on the processing

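The number of members called between KO and WT, 2 as reported, was 0 with averaged probe sets, without the intensity trend and with the array set as a block, 5 with array quality weights and without both WT replicate 3 and HET replicate 1, and 6 with the 6 arrays compared alone. Of all genes 1.62% were called as reported, and under those alternatives, in the same order, 0.0568%, 0.0461%, 0.00768%, 4.7%, 3.39% and 5.93%. The members' number was 3 with quantile normalization, which adds Acta2 (1.31% of all genes). It ran from 0 to 7 when single arrays were left out, with 7 without HET replicate 1, 1 without KO replicate 3 and 0 without WT replicate 2 or 3 or KO replicate 1 or 2, where from 0.0768% to 6.45% of all genes were called. The number of isoform ratios called, 4 as reported, was 2 without the filter, 1 with averaged probe sets, 0 without the trend and 0 with the array set as a block, and ran from 0 to 7 when single arrays were left out. Between HET and WT, leaving out single arrays gave from 0 to 5 members and from 0 to 1 ratios, the highest counts without HET replicate 1, and leaving out both arrays gave 1 member (1.77% of all genes) and 1 ratio. Without HET replicate 1 the array sets part WT from HET and KO completely, so those counts cannot be told from a difference between sets. The cause of these changes was not tested.

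The median KO minus WT difference of the members, -0.07 as reported, was 0.034 with the array set as a block and -0.0073 with quantile normalization. That of HET minus WT, -0.09, was -0.025 with quantile normalization, -0.17 with arrays shifted to one median and -0.016 with the array set as a block, and that of KO minus HET, 0.01, was 0.068 with arrays shifted to one median. The replicate numbers did not pair the arrays, since deviations of same-numbered arrays correlated between -0.04 and 0.05. With the replicate number as a block, 3 members (Myl1, Myl7 and Tnnt1; 0.975% of all genes) and 5 ratios were called between KO and WT.

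With the array set as a block 20 of 42 members turned direction between KO and WT. Among the members named by rule Myl2 was at 0.10, Actc1 at 0.0064, Tnni3 at 0.086, Tpm1 at 0.020, Tpm2 at 0.088, Myom1 at 0.024, Ttn at -0.080 and Ldb3 at -0.12. The other 12 were Myh7b, Myh3, Myh8, Myl9, Mybpc1, Tnnc1, Tpm4, Tmod1, Tcap, Csrp3, Des and Flnc, from -0.97 in Myh8 to 1.02 in Myh3, both dim. For members named by rule, other alternatives turned these. With quantile normalization Myl3 was at 0.028 and Myom1 at 0.011. With averaged probe sets Tpm1 was at 0.026, Tpm2 at 0.14, Tpm3 at -0.21, Ttn at -0.17 and Ldb3 at -0.15. Tpm3 was at -0.028 without WT replicate 3, also with HET replicate 1 left out, and ran to 0.039 when other single arrays were left out. Myom1 was at 0.012 without WT replicate 1 and ran down to -0.054. Myom2 was at -0.0012 with arrays shifted to one median, -0.0054 with quality weights, -0.076 without WT replicate 3, also with HET replicate 1 left out, -0.028 without KO replicate 1 and -0.038 without KO replicate 3, and ran to 0.091. Single probe sets gave 0.50 for Tpm1, 0.14, 0.014 and 0.60 for Tpm2, -1.06 and -0.29 for Tpm3, -0.36, -0.23, -0.37 and -0.21 for Ttn, 0.27 for Nebl, and -0.12 and -0.51 for Ldb3. Myl1 and Tnnt1 have 1 probe set each, so the probe set alternatives could not turn them, and a called ratio was not refitted by single probe sets. Under the other alternatives Myl1, Tnnt1 and the 4 called ratios kept their direction. Over the 22 alternatives, Myl1 kept its call in 15 with differences from 0.93 to 1.31 and Tnnt1 in 14 with -0.95 to -0.63. Genes near the background, such as Myh3, Myh8 and Mybpc1, are limited by their signal.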
